A study of Mus musculus with 2 samples.

Results

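Mixl1, Gsc, Lhx1, Evx1 and Otx2 are 5 homeobox genes that mark the primitive streak and its surroundings. They were taken by symbol from the 27998 genes listed for both libraries, and all 5 symbols were found. Single cells of AB2.2, an established mouse embryonic stem cell line, were sequenced in droplets (10x Genomics) after 4 days of differentiation toward mesendoderm, the state from which mesoderm and endoderm both arise. One group was wild type AB2.2 cells and the other was PHD2 knockout AB2.2 cells, with 1 library each and no treatment other than the shared differentiation. PHD2, the product of Egln1, hydroxylates HIF subunits in the presence of oxygen. Neither the part of Egln1 that was altered nor whether the knockout is 1 clone is stated in the sources used here. With 1 library per group there was no test between groups, and every interval below is at 95% and covers counting error only.

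The primitive streak is the region of the gastrulating embryo through which epiblast cells leave the epithelium to form mesoderm and endoderm. T (Brachyury) is switched on as cells enter it, and Mesp1 marks the earliest mesoderm that leaves it. Mixl1, a paired-class factor that responds to Nodal and Wnt signals, is found along the whole streak. Gsc, a paired-class repressor, marks the anterior streak and the organizer, and Lhx1 is a LIM homeodomain factor of the organizer and of nascent mesoderm. Evx1, a relative of the Drosophila gene even-skipped, marks the posterior streak, while Otx2 is expressed through the epiblast before it is confined to the anterior embryo.

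Because 4 of the 5 genes were higher in the knockout library, their promoters are shown before the values. Windows from 250 bases before to 50 bases after the transcription start were taken from RefSeq (GRCm38.p6, the assembly that mm10 names), and 4 of the 5 genes had one (Mixl1 did not match). Otx2 had 4 windows, of which the one with the most matches is shown. Both strands were searched for the T-box site AGGTGTGA and its core AGGTGT, which lies within it, the FoxH1 site AATCCACA, the TCF site CTTTGAT, the bicoid-class homeodomain site GGATTA, the site TAATTA bound by many other homeodomains, and the HIF core ACGTG. Capitals mark the matches, and each window is printed on its gene's strand.
Gsc (chr12:104473187-104473486, minus strand): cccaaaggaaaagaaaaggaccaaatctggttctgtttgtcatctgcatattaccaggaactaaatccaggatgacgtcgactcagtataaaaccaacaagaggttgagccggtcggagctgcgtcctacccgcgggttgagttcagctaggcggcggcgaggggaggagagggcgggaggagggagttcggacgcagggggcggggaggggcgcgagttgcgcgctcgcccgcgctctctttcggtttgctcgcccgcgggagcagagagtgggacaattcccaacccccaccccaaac
Lhx1 (chr11:84525485-84525784, minus strand): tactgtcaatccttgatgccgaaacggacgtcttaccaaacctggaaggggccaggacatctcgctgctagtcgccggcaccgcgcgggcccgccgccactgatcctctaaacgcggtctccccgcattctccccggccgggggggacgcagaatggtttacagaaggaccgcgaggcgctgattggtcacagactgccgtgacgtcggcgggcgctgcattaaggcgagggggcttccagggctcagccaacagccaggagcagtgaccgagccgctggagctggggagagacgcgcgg
Evx1 (chr6:52313248-52313547, plus strand): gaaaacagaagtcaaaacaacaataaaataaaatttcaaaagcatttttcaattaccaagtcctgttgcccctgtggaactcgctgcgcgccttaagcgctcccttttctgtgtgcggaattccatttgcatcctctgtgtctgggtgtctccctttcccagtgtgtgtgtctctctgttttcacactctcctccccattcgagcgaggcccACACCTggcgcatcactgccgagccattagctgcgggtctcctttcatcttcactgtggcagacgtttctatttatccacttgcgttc
Otx2 (chr14:48665060-48665359, minus strand): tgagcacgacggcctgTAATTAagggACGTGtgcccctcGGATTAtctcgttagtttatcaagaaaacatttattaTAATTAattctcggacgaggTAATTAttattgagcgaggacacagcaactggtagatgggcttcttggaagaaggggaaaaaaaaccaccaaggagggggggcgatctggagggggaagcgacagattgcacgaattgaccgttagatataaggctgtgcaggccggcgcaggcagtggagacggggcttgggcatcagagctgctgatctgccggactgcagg
The Gsc and Lhx1 windows held none of the 7 motifs. The Evx1 window held 1 T-box core at position -38, on the strand opposite to the gene. The Otx2 window held 3 TAATTA sites, 1 GGATTA site and 1 ACGTG. Over all 32851 windows of this length in the table, the T-box core was in 13.7%, the full T-box site in 1.28%, the FoxH1 site in 0.855%, the TCF site in 3.73%, GGATTA in 7.06%, TAATTA in 5.29% and ACGTG in 19.6%. A match describes the letters of a window and is neither a binding site nor a cause, and a window without one says nothing about the factor.

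The wild type library held 9651 barcodes, of which 8515 cells were kept with a median of 20434 UMIs (unique molecular identifiers, the counted molecules). The knockout library held 7713, of which 6927 cells were kept with a median of 20999 UMIs. The libraries shared 22 barcodes, 16 of them among kept cells. Levels are given in CPM, the UMIs of a gene summed over kept cells and scaled to the library total. Egln1 had 18.2 CPM in the wild type library and 13.6 CPM in the knockout library. That level does not check the knockout, since transcript outside the altered part would still be counted. Levels are compared below within a gene only, because transcript length and capture differ between genes.

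Mixl1, Gsc, Lhx1 and Evx1 were higher in the knockout library, and Otx2 was not. Lhx1 (ENSMUSG00000018698; mm10 chromosome 11, 84518284 to 84525535, minus strand) had 41 UMIs in wild type and 5288 in knockout cells, or 0.203 CPM (0.146 to 0.276) against 33.5 CPM (32.6 to 34.4). The knockout level was 165-fold that of the wild type (121 to 230). Mixl1 (ENSMUSG00000026497; chromosome 1, 180693043 to 180697034, minus strand) had 191 and 11554 UMIs, a level of 0.948 CPM (0.818 to 1.09) against 73.2 CPM (71.9 to 74.6). Gsc (ENSMUSG00000021095; chromosome 12, 104471209 to 104473330, minus strand) had 84 and 3148 UMIs, at 0.417 CPM (0.333 to 0.516) and 19.96 CPM (19.3 to 20.7). The knockout over wild type ratio was 77.3 (67.0 to 89.6) for Mixl1 and 47.9 (38.5 to 60.2) for Gsc. All 3 genes were thus under 1 CPM in the wild type library.

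Evx1 (ENSMUSG00000005503; chromosome 6, 52313498 to 52318378, plus strand) had a wild type level of 3.06 CPM (2.83 to 3.31), from 617 UMIs. It reached 24.1 CPM (23.3 to 24.9) in the knockout library, from 3801 UMIs, a ratio of 7.87 (7.22 to 8.58). Otx2 (ENSMUSG00000021848; chromosome 14, 48657677 to 48673819, minus strand) was at 19.6 CPM (19.0 to 20.2) in wild type cells, from 3950 UMIs, and at 16.4 CPM (15.8 to 17.1) in knockout cells, from 2594 UMIs. It was 1.19-fold higher in the wild type library (1.13 to 1.25), less than the 1.5-fold taken here as a call.

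A call was made among the 8540 genes with at least 5 CPM in the higher library. Of these, 1207 (14.1%) differed by 1.5-fold or more, with 1006 (11.8%) higher and 201 (2.35%) lower in the knockout, and the median log2 ratio was 0.17. All 5 homeobox genes passed the minimum, 4 were called higher and Otx2 lay between. Mixl1, Gsc, Lhx1 and Evx1 passed it through the knockout library alone, so they had to differ, and the count of 4 is a description. In the order of ratios from the highest, Lhx1 was at rank 4, Mixl1 at rank 5, Gsc at rank 10, Evx1 at rank 40 and Otx2 at rank 7712 of the 8540.

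**Figure D1:**
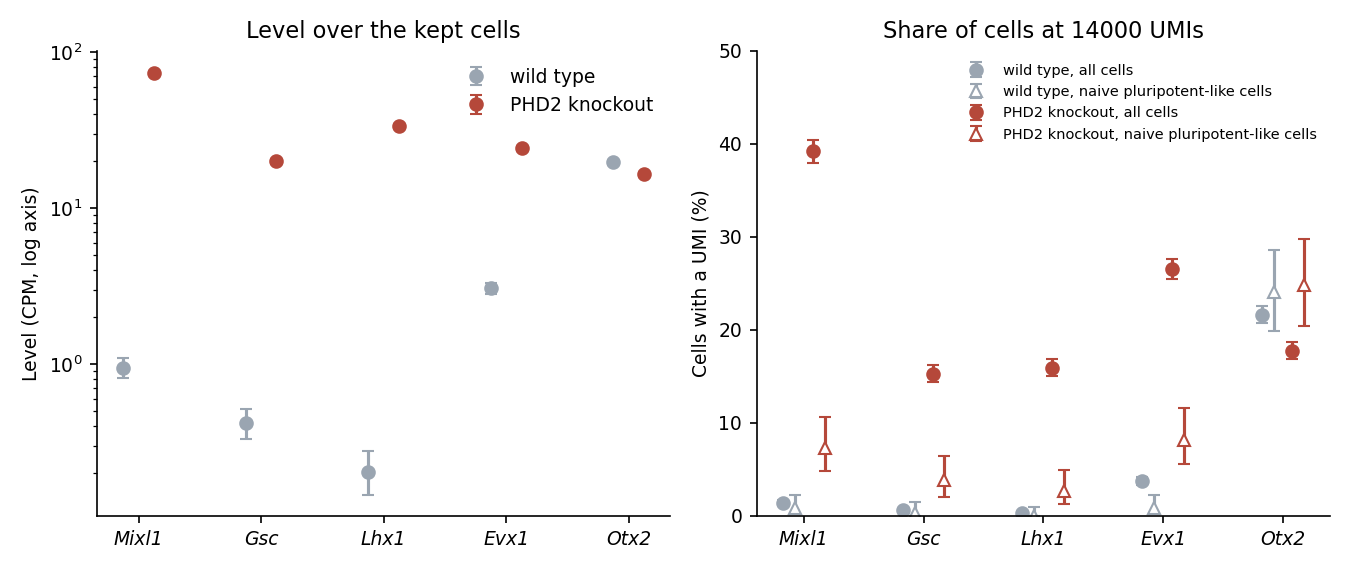
Left, level of each gene over the kept cells of each library (CPM, log axis), with exact Poisson intervals. Right, share of cells with at least 1 UMI after each cell was thinned to 14000 UMIs, over all cells (filled circles) and over naive pluripotent-like cells (open triangles), with exact binomial intervals. The wild type points of Mixl1, Gsc, Lhx1 and Evx1 lie below 5 CPM and the knockout points at 19.96 CPM or more, while the Otx2 points of the libraries lie at 19.6 and 16.4 CPM.

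The share of UMIs from chromosome 8 had a low and a high population of cells in each library, and the mix differed: 1236 wild type and 3027 knockout cells had a share under 5.8%, a limit set after the data were seen. No gene of the 5 lies on that chromosome. Knockout cells with the low share had higher levels of all 5 genes than those with the high share. Lhx1 was at 56.6 against 14.7 CPM in them, Gsc at 34.2 against 8.37 CPM, Mixl1 at 105 against 47.2 CPM, Evx1 at 30.2 against 19.1 CPM and Otx2 at 18.3 against 14.9 CPM. Within cells of like share the library ratio of Mixl1 was 57.0 (43.5 to 76.5; low share) and 58.9 (49.7 to 70.2; high share), that of Evx1 was 8.60 and 6.40, and that of Otx2 was 0.900 and 0.766. Gsc had a ratio of 40.2 (26.9 to 62.8) in cells of low share and 24.2 (18.6 to 32.0) in cells of high share. For Lhx1 the ratio was 65.5 (47.7 to 92.6) in cells of high share, and in cells of low share it was 798 (221 to 6589), which rests on 2 wild type UMIs. The same 4 genes therefore remained above 1.5-fold in both populations, and the differences in size were not tested.

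Transcripts that run opposite to 3 of the genes were listed as well. Evx1os, which runs opposite to Evx1 and overlaps it by 1335 bases, had 2.87 CPM in the wild type library and 29.99 CPM in the knockout library, 10.4-fold more. The sources used here do not say whether counting used the strand, so UMIs of Evx1 and Evx1os cannot be told apart in the shared stretch. Lhx1os, which does not overlap Lhx1 and starts beside its promoter on the other strand, had 6 and 282 UMIs (0.0298 and 1.79 CPM). Otx2os1, which overlaps Otx2 by 5112 bases, had 4 and 3 UMIs, too few to compare between the libraries.

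The level of a gene over a library does not say how many cells carry it, so shares of cells were taken after each cell was thinned at random to 14000 UMIs. This left 7738 wild type and 6281 knockout cells and left out 777 and 646 shallower ones. Mixl1 was found in 1.36% (1.11 to 1.64) of the wild type cells and 39.2% (37.97 to 40.4) of the knockout cells, the most widespread of the 5 in the knockout. Evx1 followed with 3.76% (3.35 to 4.21) and 26.5% (25.4 to 27.6). Lhx1 was in 0.258% (0.158 to 0.399) and 15.9% (14.98 to 16.8), and Gsc in 0.556% (0.402 to 0.748) and 15.3% (14.4 to 16.2), so that in the knockout the intervals of these last 2 overlapped. For Otx2 the shares were 21.6% in the wild type (20.7 to 22.5) and 17.8% in the knockout (16.8 to 18.7). In unthinned cells the knockout shares were 44.9% for Mixl1, 35.6% for Evx1, 18.8% for Lhx1, 19.3% for Gsc and 24.4% for Otx2, and the wild type shares were 2.09%, 6.18%, 0.411%, 0.869% and 30.6%.

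Naive pluripotent-like cells, a class in which streak genes are not known to be active, were taken as the reference for UMIs that free RNA in the droplets can leave. Their median depth was 20810 UMIs in wild type and 24811 UMIs in knockout cells. In 383 thinned wild type cells of this class Mixl1 was in 0.783% (0.162 to 2.27), Gsc in 0.261% (0.00661 to 1.45) and Lhx1 in 0 cells, a count that would still allow 0.783%. The wild type shares of Mixl1, Gsc and Lhx1 over all cells were within those limits, so that over the whole library they are not told apart from the reference. The 3 genes were still unevenly spread over wild type cells, as given below for Mixl1 and Gsc by T count and for Lhx1 by cluster. Evx1 was in 0.783% of the class (0.162 to 2.27), below its 3.76% over all wild type cells. In 342 thinned knockout cells of the class the shares were 7.31% for Mixl1, 3.801% for Gsc, 2.63% for Lhx1 and 8.19% for Evx1, each under its share over all knockout cells. The class is no clean reference in the knockout, where 47.4% of its cells had T (42.0 to 52.8) and 17.0% had Mesp1 (13.1 to 21.4). Its knockout Mixl1 level was 8.25 CPM (6.50 to 10.3), or 4.25 CPM (2.72 to 6.32) when cells were clustered without the cell type marker genes, against 1.84 CPM (0.5003 to 4.70) in the 97 knockout cells of a cluster led by contractile genes (cluster 8). Otx2 was in 24.0% and 24.9% of this class in the wild type and the knockout library, so for Otx2 the class is no background.

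Cells of the knockout differed in how much of a gene they held as well as in whether they held it. Of the Mixl1-positive knockout cells 59.6% had at least 2 UMIs, with a highest count of 17. The figure was 54.2% for Lhx1, whose highest count was 26, and 44.2% for Gsc, whose highest was 11. Evx1 and Otx2 were shallower, with 23.5% and 24.5% of positive cells at 2 UMIs or more and highest counts of 6 and 8. In the wild type library no thinned cell held more than 1 UMI of Gsc or Lhx1.

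The order of the genes along the streak was read from the T and Mesp1 counts of the same thinned cells, in bins of 0, 1, 2 to 3, 4 to 7, 8 to 15, and 16 or more UMIs. These bins order cells by a count and not by time. Along Mesp1 all 5 genes had a higher share in the top bin (459 knockout cells) than in the bottom bin (4224 cells), with intervals apart. Mixl1 was already in 28.8% of cells without a Mesp1 UMI (27.5 to 30.2), reached 60.2% at 2 to 3 UMIs, and was at 90.6% (86.4 to 93.9) and 85.2% (81.6 to 88.3) in the upper bins. Gsc was in 7.29% of cells at 0 UMIs (6.53 to 8.12), 34.1% at 2 to 3, 45.5% at 4 to 7, and 50.8% and 50.1% above that. Both genes had passed the midpoint between their lowest and highest bins at 2 to 3 Mesp1 UMIs and showed no further increase past 8.

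Lhx1 had a higher share in every successive Mesp1 bin. Its share was 6.04% (5.34 to 6.80) at 0 UMIs, 26.5% (21.4 to 32.1) at 2 to 3, 44.4% (37.1 to 51.8) at 4 to 7, 62.5% (56.3 to 68.5) at 8 to 15 and 74.7% (70.5 to 78.6) at 16 or more. The top bin thus had 12.4 times the share of the bottom bin, against 6.87 times for Gsc and 2.95 times for Mixl1. A share that begins high, as that of Mixl1, cannot grow as many times. Levels, which have no such limit, went from 6.85 to 208 CPM for Lhx1, 8.66 to 68.6 CPM for Gsc and 44.7 to 228 CPM for Mixl1. Evx1, which began at 22.8% (21.5 to 24.1), was at 46.1% and 45.1% in the upper bins, 1.98 times its lowest share. Otx2 moved least, from 16.03% (14.9 to 17.2) to 27.7% (23.6 to 32.0).

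**Figure D2:**
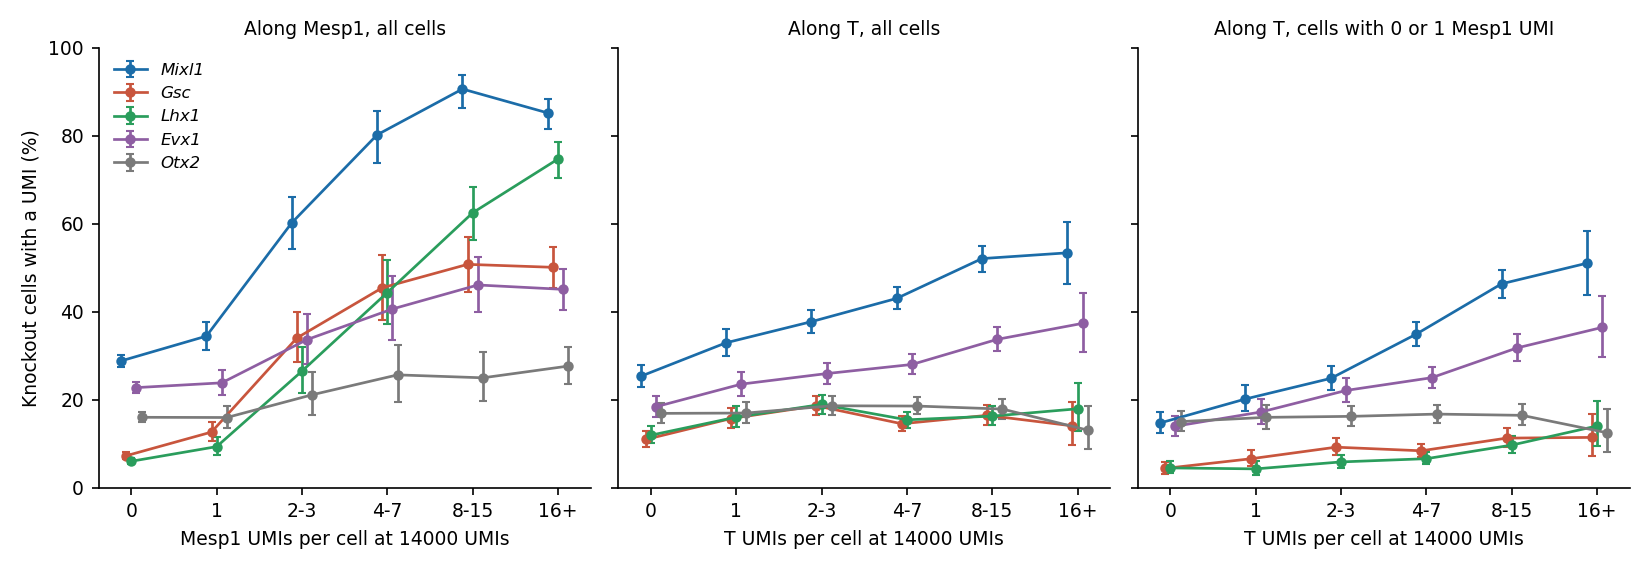
Share of knockout cells with a UMI of each gene (vertical axis, %) in bins of Mesp1 counts (left), of T counts (middle), and of T counts among cells with 0 or 1 Mesp1 UMI (right), all at 14000 UMIs per cell, with exact binomial intervals. Mixl1 and Gsc level off along Mesp1 while Lhx1 goes on to 74.7%, and along T the lines of Mixl1 and Evx1 end higher than they begin while that of Otx2 does not.

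Along T the genes separated. Mixl1 went from 25.3% of cells with no T UMI (22.8 to 28.0) to 53.4% of cells with 16 or more (46.3 to 60.4), and Evx1 from 18.4% (16.2 to 20.8) to 37.4% (30.8 to 44.4). Both shares were higher in each bin than in the one before, though the intervals of neighbouring bins often overlapped. Gsc was at 10.98% in the lowest T bin, 18.6% at 2 to 3 UMIs and 14.1% (9.64 to 19.6) in the highest. Lhx1 likewise had 11.96%, 18.95% and 18.0% (13.0 to 23.9), and Otx2 16.9%, 18.6% and 13.1% (8.82 to 18.5). The Lhx1 level ran otherwise, at 31.3 CPM (28.6 to 34.2), 41.8 CPM and 20.1 CPM (15.3 to 26.0) in these bins. It was thus lower in the highest T bin than in the lowest, with intervals apart. For Gsc and Otx2 the intervals of the level in the end bins overlapped. Cells with many Mesp1 UMIs are spread over the T bins, and Mesp1 itself was in 28.7%, 37.8% and 20.9% of cells in those bins.

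Among knockout cells with 0 or 1 Mesp1 UMI, the shares of 4 of the genes were higher at high T, with intervals of the end bins apart. Mixl1 was in 14.7% (12.5 to 17.2) of such cells without T and 51.0% (43.7 to 58.3) of those with 16 or more T UMIs. Evx1 went from 14% (11.9 to 16.4) to 36.5% (29.6 to 43.7). Lhx1 and Gsc were in fewer cells, from 4.53% (3.29 to 6.05) to 14.1% (9.48 to 19.8) and from 4.42% (3.20 to 5.93) to 11.5% (7.32 to 16.8). Otx2 had overlapping intervals, with 15.1% (12.8 to 17.5) at the bottom and 12.5% (8.18 to 18.0) at the top.

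Among cells with at least 4 Mesp1 UMIs the shares of all 5 genes had overlapping intervals in the end bins of T. Mixl1 was in 89.0% (82.2 to 93.8) of those without T and in 87.1% (79.9 to 92.4) of those with 8 to 15 T UMIs. Gsc was at 47.2% and 49.2% in the same bins, Lhx1 at 61.4% and 61.3%, Evx1 at 46.5% and 45.2%, and Otx2 at 29.1% and 26.6%. The Mixl1 share has little room to go up here, and its level did differ, at 196 CPM (176 to 217) without T and 242 CPM (219 to 266) with 8 to 15 T UMIs. The levels of the other 4 genes had overlapping intervals in these bins, among them Lhx1 at 182 CPM (162 to 203) and 154 CPM (136 to 174).

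Lhx1-positive cells had a mean of 13.9 Mesp1 UMIs and 4.65 T UMIs, where Lhx1-negative cells had 1.22 and 4.46. Mixl1-positive cells had 6.88 Mesp1 and 5.43 T UMIs against 0.868 and 3.88, and Evx1-positive cells 5.36 and 5.34 against 2.45 and 4.19. Cells with Lhx1 thus had the highest mean Mesp1 count of the 3, and cells with Mixl1 or Evx1 the higher mean T counts.

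Since only 37 thinned wild type cells had a Mesp1 UMI, the wild type library was ordered by T alone. Evx1 was in 3.495% (3.08 to 3.94) of 7238 cells without T, 7.18% (4.89 to 10.1) of 418 cells with 1 T UMI and 10.4% (4.59 to 19.4) of 77 cells with 2 to 3. Mixl1 was in 1.17% (0.939 to 1.45), 3.59% (2.02 to 5.85) and 6.49% (2.14 to 14.5) of these cells. Gsc was in 0.456% (0.314 to 0.640) and 2.39% (1.15 to 4.36) of the first 2 groups, with intervals apart. It was in 0 of the 77 cells, a count that would still allow 3.90%.

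Pairs of the 5 genes were then counted in the same cells. For each of the 10 pairs, the number of thinned knockout cells with both genes was set against the number that the product of their shares gives over 6281 cells. Gsc and Lhx1 had the highest ratio: 437 cells held both where the product gives 152, a ratio of 2.87 (2.61 to 3.15). Mixl1 was with Gsc in 764 cells against 376 (2.03; 1.89 to 2.18) and with Lhx1 in 758 against 391 (1.94; 1.80 to 2.08). A pair with a widespread gene such as Mixl1 cannot reach as high a ratio, so the order of ratios between pairs depends on the shares. By phi, the correlation between finding 1 gene and finding the other, Mixl1 and Gsc were at 0.352. Gsc and Lhx1 were at 0.345 and Mixl1 and Lhx1 at 0.328. Seen from Gsc, 79.7% of Gsc-positive cells also had Mixl1 (77.0 to 82.2), while 31.9% of Gsc-negative cells did. Seen from Mixl1, 31.0% of its cells had Gsc (29.2 to 32.9) and 5.10% of the other cells did (4.43 to 5.85), so most Gsc cells lay within the larger set of Mixl1 cells.

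Evx1 was found with each of Mixl1, Gsc and Lhx1 more often than the product of shares, but less so. The ratio was 1.58 (1.44 to 1.74) with Lhx1, 1.55 (1.40 to 1.71) with Gsc and 1.42 (1.33 to 1.51) with Mixl1. By phi the order was another, with Mixl1 highest, then Lhx1 and then Gsc. The lowest ratio with the widespread Mixl1 therefore does not mean that Evx1 went least with it. Otx2 was with Gsc in 292 cells against 170 (1.72; 1.52 to 1.92), with Lhx1 in 276 against 177 (1.56; 1.38 to 1.75) and with Mixl1 in 515 against 437 (1.18; 1.08 to 1.29). Evx1 and Otx2 were together in 308 cells against 296, a ratio of 1.04 (0.928 to 1.16), the lowest of the 10 and the only one whose interval holds 1.

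Much of the co-detection went with Mesp1. When the expected number was summed over bins of T by Mesp1 counts, the Gsc and Lhx1 ratio was 1.25 (1.14 to 1.38), that of Mixl1 and Gsc 1.32 (1.23 to 1.41) and that of Mixl1 and Lhx1 1.14 (1.06 to 1.23). The highest ratio within bins was that of Gsc and Otx2, at 1.41 (1.25 to 1.58), and the next after Mixl1 and Gsc and Gsc and Lhx1 was Lhx1 and Otx2, at 1.22 (1.08 to 1.38). Evx1 had 1.17 with Mixl1 (1.10 to 1.25), 1.17 with Gsc (1.06 to 1.295) and 1.13 with Lhx1 (1.02 to 1.24). Evx1 and Otx2 were at 0.982 (0.875 to 1.10) and Mixl1 and Otx2 at 1.06 (0.970 to 1.15), both with intervals that hold 1. With bins of Mesp1 alone Gsc and Lhx1 were at 1.27, Mixl1 and Gsc at 1.35 and Mixl1 and Lhx1 at 1.17. Adding T thus changed these ratios little, and bins of T alone were not counted. The bins are wide in their upper range, so cells within a bin still differ in Mesp1.

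**Figure D3:**
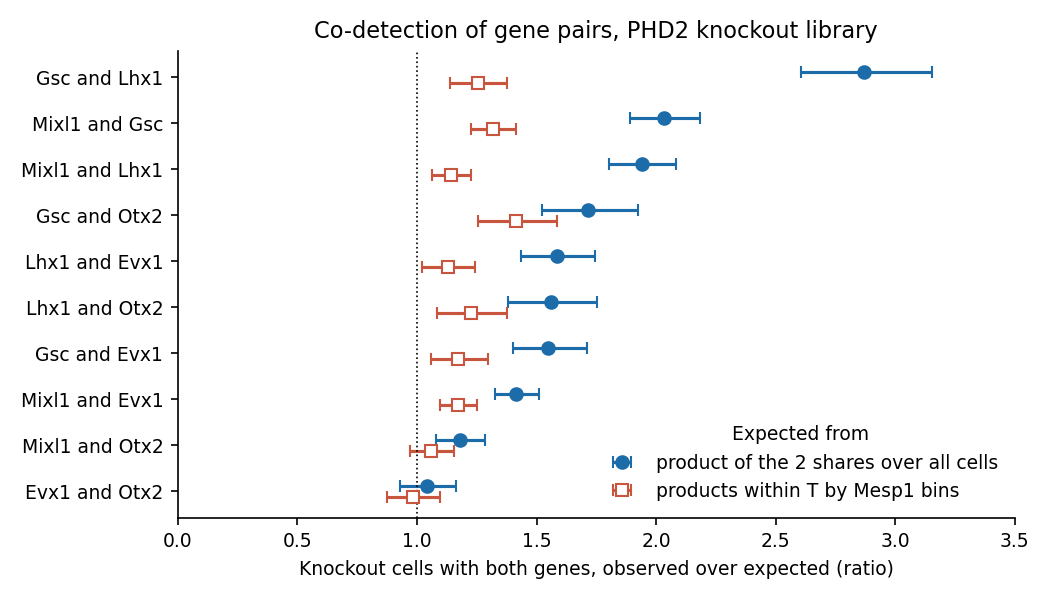
Number of knockout cells with both genes of a pair over the expected number (horizontal axis, ratio), where the expected number is the product of the shares over all cells (filled circles) or the sum of products within T by Mesp1 bins (open squares), with exact Poisson intervals of the observed number. The dotted line is a ratio of 1. Gsc and Lhx1 lead without bins at 2.87, and Gsc and Otx2 lead within bins at 1.41. Pairs with a widespread gene cannot reach as high a ratio, so the order between pairs depends on the shares.

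In the wild type library the few positive cells allowed little. Mixl1 and Evx1 were together in 12 cells against 3.95 from the product of shares, a ratio of 3.04 (1.57 to 5.31), and of 2.66 (1.37 to 4.64) within T by Mesp1 bins. Mixl1 and Gsc were together in 4 cells against 0.583 (6.86; 1.87 to 17.6), and within bins the ratio was 2.36 (0.644 to 6.05), an interval that holds 1. The only wild type cell with 4 or more Mesp1 UMIs held both genes and was alone in its bin. It supplied 1 of the 1.69 cells expected within bins, so the lower ratio there is largely fixed by that cell. In 0 wild type cells was Lhx1 found together with Mixl1 or with Gsc, which would still allow 0.0388% of cells. Evx1 and Otx2 were together in 65 cells against 62.9, a ratio of 1.03 (0.798 to 1.32).

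Counting Mixl1, Gsc, Lhx1 and Evx1 together, 2807 of the thinned knockout cells (44.7%) held none of the 4, where the product of shares gives 31.9%. Cells with 1 of them made up 28.3% (43.8% from the product), and cells with 2 made up 15.4% (20.3%). At the other end, 556 cells (8.85%; 8.16 to 9.58) held 3 against 3.82%, and 177 cells (2.82%; 2.42 to 3.26) held all 4 against 0.252%, or 15.8 cells. Both extremes were thus fuller than independent detection gives. Mean Mesp1 counts went from 0.356 in cells with none to 16.5 in cells with all 4, whereas mean T counts were 3.56 with none, 5.67 with 2 and 4.24 with all 4. In the wild type library 94.3% of cells held none of the 4.

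Otx2, though not higher in the knockout library, was not spread evenly over these cells. It was in 15.4% of knockout cells with none of the 4 (14.1 to 16.8), 15.7% of those with 1 (14.001 to 17.4), 17.7% of those with 2 (15.3 to 20.3), 29.0% of those with 3 (25.2 to 32.9) and 40.7% of those with all 4 (33.4 to 48.3). The intervals for 0, 1 and 2 genes overlapped, and those for 3 and 4 lay above them. Cells with 3 and 4 of the genes had mean Mesp1 counts of 14.1 and 16.5, and every such cell holds Gsc or Lhx1. Whether the Otx2 share goes with the number of genes apart from these was not tested.

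**Figure D4:**
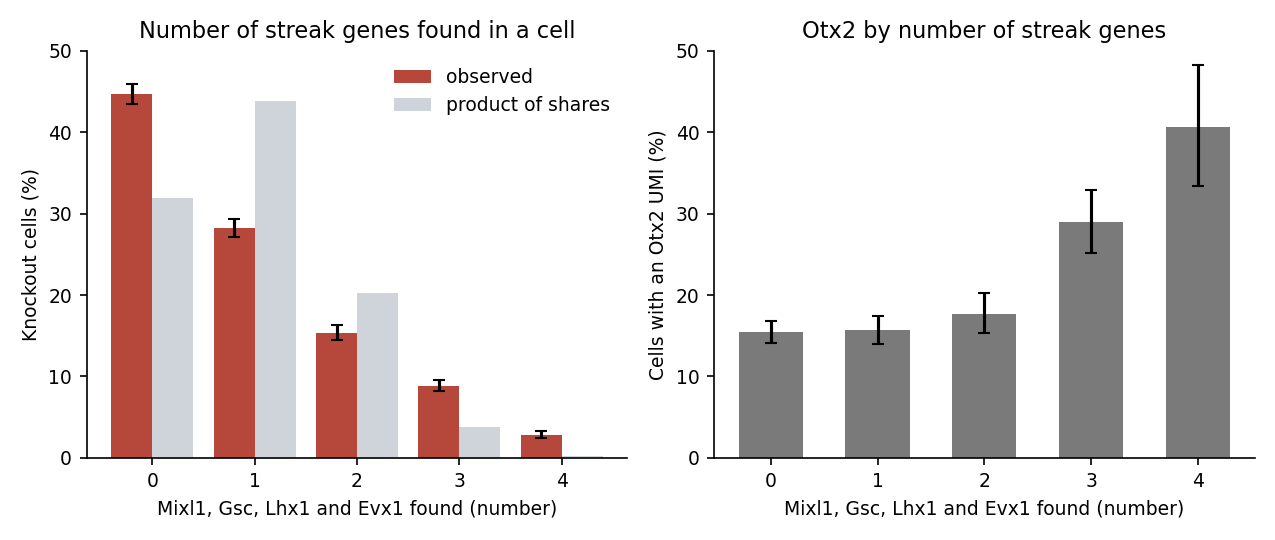
Left, percentage of thinned knockout cells in which 0 to 4 of Mixl1, Gsc, Lhx1 and Evx1 were found, observed (red, with exact binomial intervals) and as the product of their shares gives (grey). Right, percentage of those cells with an Otx2 UMI, with exact binomial intervals. Cells with all 4 genes are 2.82% against 0.252%, and 40.7% of them held Otx2.

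Cells were clustered over both libraries with the 5 genes left out, which gave 14 clusters, 6 of them named from markers. Cluster 14 was mesoderm-like (1023 knockout and 0 wild type cells, led by Mesp1 and Cyp26a1), clusters 4 and 11 were primitive streak-like (1554 and 1479 knockout cells, led by T, Fst and Fgf8), cluster 12 was haemato-endothelial-like (144 knockout cells, with Etv2 and Lmo2), cluster 10 was naive pluripotent-like and cluster 3 was 2-cell-like. Clusters 4, 11, 12 and 14, and the unnamed cluster 9 described below, held 0 to 15 wild type cells, so that each may be the knockout library and not a type. Lhx1 and Mixl1 were among the 10 leading genes of the mesoderm-like cluster although neither had been used to draw it.

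In mesoderm-like knockout cells Mixl1 was at 221 CPM (215 to 227), Gsc at 67.3 CPM (64.0 to 70.7), Lhx1 at 174 CPM (169 to 180), Evx1 at 46.6 CPM (43.9 to 49.4) and Otx2 at 24.1 CPM (22.2 to 26.2). The cluster was 14.8% of knockout cells and held 77.1% of the Lhx1 UMIs of the library, 50% of Gsc, 44.8% of Mixl1, 28.7% of Evx1 and 21.7% of Otx2. Lhx1 was thus the gene most concentrated in it. In the primitive streak-like clusters 4 and 11 Lhx1 was at 13.8 and 13.9 CPM, Mixl1 at 61.3 and 65.8 CPM, Gsc at 14.6 and 19.6 CPM, Evx1 at 19.97 and 25.4 CPM and Otx2 at 16.6 and 21.1 CPM.

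The haemato-endothelial-like cells kept Mixl1 at 108 CPM (97.1 to 120) and Gsc at 25.7 CPM (20.4 to 32.0) but had Lhx1 at only 4.45 CPM (2.43 to 7.46), from 14 UMIs. Their Mesp1 level was 37.5 CPM, against 1130 CPM in mesoderm-like cells. Cluster 9, unnamed and led by Lgals3, Krt19 and Ccl20 (1348 knockout cells), had T at 299 CPM but low anterior genes: Gsc at 4.65 CPM (3.96 to 5.42), Lhx1 at 4.50 CPM and Otx2 at 6.66 CPM (5.83 to 7.58). Evx1 in that cluster was at 22.5 CPM (21.0 to 24.1), within the range of the streak-like clusters, and Mixl1 at 37.1 CPM. Cluster 9 thus combined an Evx1 level like that of the streak-like clusters with lower Gsc and Otx2.

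Otx2 was the only gene of the 5 with as high a level in naive pluripotent-like knockout cells, 24.8 CPM (21.7 to 28.3), as in mesoderm-like cells. In wild type cells it was at 27.1 CPM (23.96 to 30.6) in that class and at 27.3 CPM (25.6 to 29.0) in cluster 6, led by L1td1 and Dnmt3b. It was lower in cluster 8, led by the contractile genes Acta1, Tagln and Acta2 with Sfn, at 11.4 CPM (10.5 to 12.3), and in the 2-cell-like cluster 3, at 9.80 CPM (7.67 to 12.3). The value of the 2-cell-like class depended on the clustering. With the markers left out of clustering, the wild type 2-cell-like cells had Otx2 at 16.5 CPM (13.4 to 20.05), and a separate unnamed cluster with 1700007K13Rik and Mdm2 among its leading genes had it at 9.59 CPM (6.76 to 13.2).

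Of the 41 wild type Lhx1 UMIs 17 (41.5%) were in the 395 cells of cluster 3, at 2.31 CPM (1.35 to 3.71), where naive pluripotent-like wild type cells had 0 (0 to 0.376). Their place in 2-cell-like cells was lost with the markers left out of clustering. The 2-cell-like cluster of 299 wild type cells then held 1 Lhx1 UMI (0.165 CPM; 0.00417 to 0.918), and the unnamed cluster, with 201 wild type cells, held 17, at 4.41 CPM (2.57 to 7.06).

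**Figure D5:**
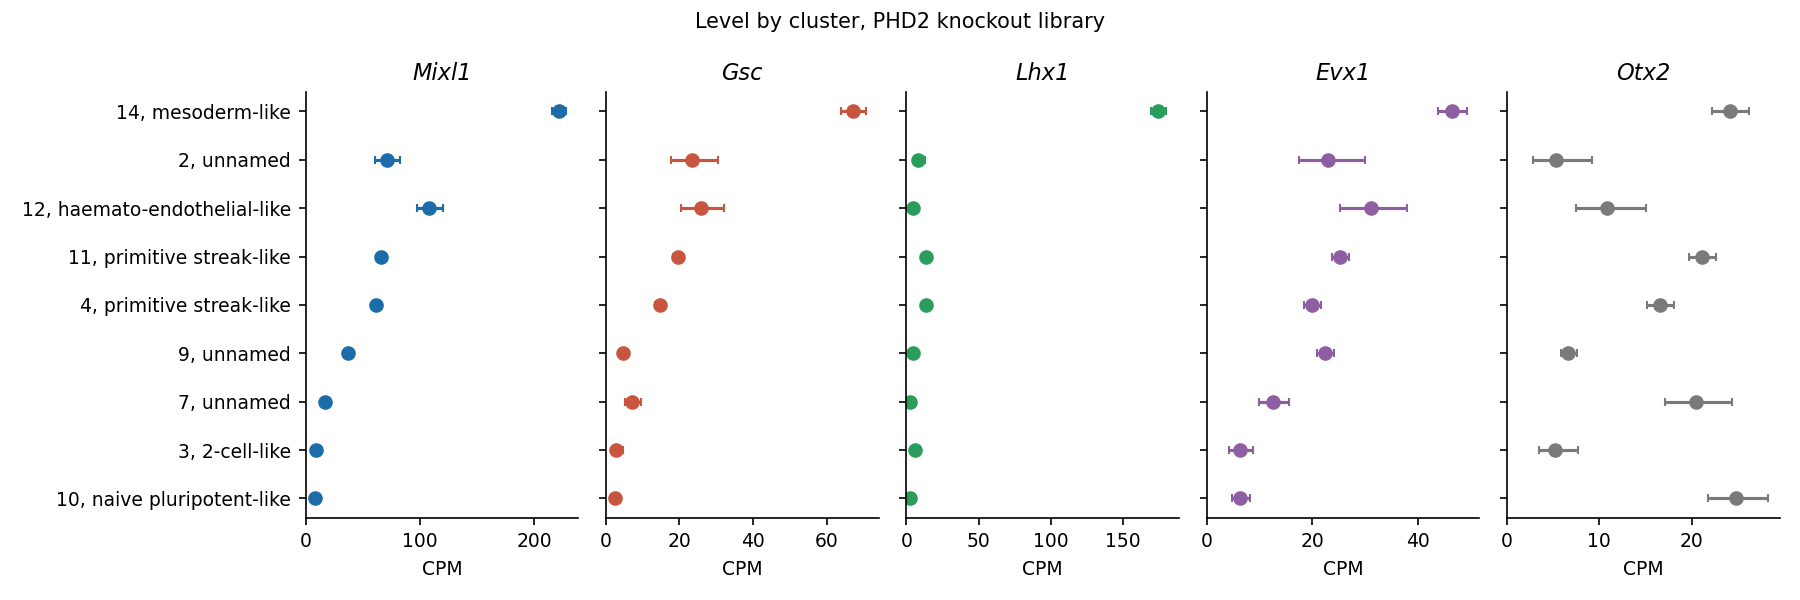
Level of each gene (CPM, horizontal axes differ between panels) in the clusters with over 100 knockout cells, with exact Poisson intervals. Lhx1 is at 174 CPM in the mesoderm-like cluster and at 13.9 CPM or less in every other cluster shown, whereas Otx2 is at 24.1 CPM there and at 24.8 CPM in the naive pluripotent-like cluster.

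The genes whose counts ran closest to each of the 5 over the 6281 thinned knockout cells were named by Pearson r of log counts among 11007 genes. These cells share 1 library and 1 depth, and r is given as a description. Lhx1 was closest to Mesp1 (r = 0.60) and to Cyp26a1, the retinoic acid-degrading enzyme (0.50), followed by Dlc1 and Lmo1 (both 0.44) and Fn1 (0.43), which encodes fibronectin. Mixl1 was closest to Mesp1 (0.47), Fn1 and Cyp26a1 (both 0.43), Gsc (0.43) and Lhx1 (0.42). Gsc was closest to Mixl1 (0.43), Lhx1 (0.42), Mesp1 (0.40), Upp1 and Cyp26a1 (both 0.37). Lmo1, a LIM-only protein, was at 69.7 CPM in cells with Lhx1 and 8.64 CPM in cells without it. For Evx1 the highest value was 0.24, with Mixl1, and for Otx2 it was 0.20, with Gsc, followed by Lhx1 (0.19), Tdgf1 (0.17), Eomes (0.15) and Dnmt3b (0.14); values this low in sparse counts are no finding.

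To ask how anterior and posterior genes differ between Gsc and Evx1 cells, 565 thinned knockout cells with Gsc and no Evx1 UMI were set against 1272 cells with Evx1 and no Gsc UMI, with 394 cells that held both left out. Otx2 was at 31.9 CPM in the Gsc cells and 12.9 CPM in the Evx1 cells, 2.47-fold higher (2.05 to 2.96). Cdx2, a caudal homeobox gene, ran the other way, at 9.99 CPM in the Gsc cells and 23.4 CPM in the Evx1 cells, 2.34-fold higher in the latter (1.84 to 3.01). Since Gsc cells had more Mesp1 (704 against 263 CPM), the Evx1 cells were also weighted to the Mesp1 bins of the Gsc cells. Otx2 then remained 2.40-fold higher in Gsc cells and Cdx2 2.03-fold higher in Evx1 cells, whereas the ratio of Lhx1 was 3.70 without weighting and 1.60 with it, and that of Mixl1 was 2.24 and 1.49.

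Of 8581 genes at 5 CPM or more in either set of cells, 136 (1.58%) were at least 1.5-fold higher in Gsc cells and 417 (4.86%) in Evx1 cells, and at matched Mesp1 these were 66 (0.769%) and 203 (2.37%). Of 8 anterior genes 5 were higher in Gsc cells: Frzb, Dkk1, Eomes, Gata6 and Gata4. At matched Mesp1, Dkk1, a Wnt inhibitor (26.3 against 8.93 CPM; 1.85 at matched Mesp1), and Gata6 (20.4 against 5.56 CPM; 1.63) were still past that fold. Lefty1, a Nodal inhibitor (49.1 against 38.1 CPM), was at 1.29 without weighting and 1.92 with it. Of 15 posterior genes 2 were higher in Gsc cells and 2 in Evx1 cells, and 1 and 1 at matched Mesp1, Tbx6 (6.07 against 2.36 CPM; 1.75) and Cdx2. Of 15 nascent mesoderm genes 11 were higher in Gsc cells, Mesp1 among them, and at matched Mesp1, which fixes Mesp1 itself, none was. The lists were drawn up around these genes, so the counts beside the shares of all genes are descriptions. No Gsc-negative cell is shown to lack Gsc RNA at this depth, which blurs both sets.

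Genes of the same region and pathway were counted from lists drawn up around the 5 genes, with the call above. For every list that follows, the shares over all 8540 genes tested were 11.8% higher and 2.35% lower. A gene that reached 5 CPM through 1 library alone had to differ, so the counts from the lists are descriptions. Of 20 anterior streak, node and endoderm genes 6 reached 5 CPM, and 4 of the 6 were higher, with none lower and a median log2 ratio of 1.58 beside 0.17 for all genes tested. Dkk1 went from 0.258 CPM in the wild type to 9.51 CPM in the knockout library, Gata6 was at 0.174 and 5.79 CPM, and Eomes, the T-box factor upstream of Mesp1, at 12.02 and 49.7 CPM, while Lefty1 was at 43.4 and 43.6 CPM. Of 22 posterior streak and caudal genes 14 were measured, 11 higher and 1 lower, with a median of 2.39. Hoxb1 was at 0.293 and 19.1 CPM, T at 5.86 and 318 CPM, and Fgf4, the one that was lower, at 9.74 and 3.78 CPM. All 11 measured of 15 nascent mesoderm genes were higher, with a median of 3.63, among them Mesp1 at 0.402 and 221 CPM and Cyp26a1 at 0.159 and 26.8 CPM.

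Otx2 is also a gene of the formative epiblast, the state before the streak, and of 12 other genes of that state at 5 CPM or more 3 were higher, 6 were lower and 3 lay between (median -0.56). Foxd3 was at 6.42 and 0.976 CPM, Pou3f1, a POU homeobox gene, at 90.3 and 21.4 CPM, Utf1 at 424 and 104 CPM, and Lef1 at 13.3 and 41.5 CPM. Among 12 measured Nodal and Wnt transducers, which act upstream of Mixl1 and Gsc, 5 were higher, 1 was lower and 6 lay between (median 0.42). Tdgf1, which Nodal needs to bind its receptors, had 168 and 311 CPM, Nodal had 61.6 and 68.4 CPM, and Tcf7l1, a Wnt pathway repressor, at 32.2 and 16.9 CPM.

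Lhx1 acts in complexes with LIM cofactors. A list of LIM cofactors, LIM-only proteins and Rlim had 8 measured genes, of which 3 were higher and none lower (median 0.44). The 3 were the LIM-only genes Lmo1, at 1.81 and 17.9 CPM, and Lmo2, at 1.29 and 6.99 CPM, and Rlim, at 47.2 and 84.0 CPM. Rlim is a ubiquitin ligase of the LIM cofactors. Ldb1, the adaptor that Lhx1 binds, lay between at 7.38 and 10.3 CPM, as did Ssbp2, Ssbp3, Ssbp4 and Lmo4. Of 3 measured Tle corepressors, which bind Gsc and Otx2 class proteins, Tle3 was higher (6.84 and 12.6 CPM) and Tle1 and Tle4 lay between. Of 75 other homeobox genes found by symbol 31 were measured, 11 higher, 1 lower (Pou3f1) and 19 between, with a median of 0.38. The highest ratios among these others were those of Hoxb1 and Cdx2 (1.3004 and 16.4 CPM).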

How the data were processed

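The authors deposited, per library, a matrix of whole-number UMI counts per gene and barcode, not normalized; Cell Ranger 4.0.0 wrote it, as the header of each matrix says. Per the submitters' processing notes the build was mm10, and Cell Ranger and Seurat were used. Cells were kept with at least 1000 genes and at most 10% mitochondrial UMIs. Scrublet (scanpy 1.11.5) marked 0 cells at its automatic threshold, so the cells with the highest scores were removed, 0.8% per 1000 barcodes (712 wild type and 456 knockout cells). Levels carry exact Poisson intervals, ratios exact conditional binomial (Clopper-Pearson) intervals and shares exact Clopper-Pearson intervals, all at 95%, and a count of 0 is given the limit that 3 counts allow. PCR and droplet effects are not covered by them. Clustering (Leiden, leidenalg 0.10.2) used 2000 variable genes, 30 components, 15 neighbours and resolution 1, without the 5 genes, HIF and glycolysis genes, mitochondrial and ribosomal protein genes, Y-linked genes, Xist and Egln1. A cluster was named where at least 3 markers of a class stood out. Bins under 20 cells are not described. Gene positions come from GENCODE M21 (mm10), promoters from RefSeq. The calculations were tested on simulated data.

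The 5 genes, the lists and the markers were chosen with earlier results of these data known. Named genes are the 5, T, Mesp1, Egln1, the 5 nearest genes of each by r, cluster markers, and from each list its most abundant and most extreme genes. Lmo1, Lmo4, Ldb1, the Ssbp genes, Tle and the genes of the Gsc and Evx1 cells were named after their values were seen. Identity between the homeodomains was not analysed here. Alternatives were other limits on cells, size factors, a pseudocount of 1 CPM, thinning to 7000 UMIs, no thinning, another seed, a minimum of 2 UMIs, and other clusterings.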

Additional observations from a re-analysis of the deposited data

How the results depend on the processing

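Recomputing 55 results gave 309 values, of which 189 lay inside the reported interval and 120 moved outside it. A change of sign was looked for only in the log2 ratios of the 4 genes called higher, and 0 reversed. Some other values did change side. The Evx1 and Otx2 ratio was 1.04, 0.982 within bins and 0.883 at a minimum of 2 UMIs. Lhx1 went from 11.96% in the lowest T bin to 18.0% in the highest, but from 10.2% to 7.57% at 7000 UMIs, with overlapping intervals both times. The number of genes called higher stayed at 4 under all alternatives run. On the log2(CPM + 1) scale, which shrinks the ratios of low genes, the log2 ratios were 5.25 for Mixl1, 3.89 for Gsc, 4.84 for Lhx1 and 2.63 for Evx1. Median-of-ratios size factors, which move the median of all genes by 0.17, gave 2.80 for Evx1 and -0.43 for Otx2. In cells of low chromosome 8 share, a split added after seeing the data, the log2 ratios were 5.83 for Mixl1, 9.64 for Lhx1, 3.10 for Evx1 and -0.15 for Otx2. In those of high share they were 5.88 for Mixl1, 4.60 for Gsc, 6.03 for Lhx1, 2.68 for Evx1 and -0.39 for Otx2. The median co-detection ratio of the 6 pairs of Mixl1, Gsc, Lhx1 and Evx1 was 1.76, and it was 1.17 within T by Mesp1 bins, 2.11 at 7000 UMIs and 2.85 at a minimum of 2 UMIs. For the 4 pairs with Otx2 the median was 1.37, and the values were 1.14, 1.73 and 2.44, with 1.22 when the mesoderm-like cluster was left out. Leaving out that cluster was also added after seeing the data. Then 3 genes in place of 5 had a higher share, with intervals apart, in the highest than in the lowest Mesp1 bin. That highest bin held 79 cells in place of 459. Evx1 (22.4% and 31.6%) and Otx2 (16.2% and 22.8%) were still higher in it, with intervals that overlapped. Along T 4 genes in place of 2 had a higher share with intervals apart. Leaving out barcodes listed in both libraries, or cells with a chromosome 11 share of 12% or more, kept every log2 ratio within its interval. Lhx1 itself lies on chromosome 11. Its knockout level was 31.6 CPM in cells under 12% and 33.5 CPM over all kept cells, and a link to that share was not tested. Shares of cells follow depth: at 7000 UMIs Mixl1 was in 27.4% of knockout cells and Otx2 in 9.70%. With 1 library per group, the spread between cultures or clones is unknown and genotype and library cannot be told apart. No paired analysis was possible because each group is 1 library.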
